A study of Mus musculus with 10 samples.

Results

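The Ikaros family of zinc-finger transcription factors is described here through the open chromatin of its 5 genes, Ikzf1, Ikzf2, Ikzf3, Ikzf4 and Ikzf5. The cells were naive CD4 T cells of a KO group and a WT group for Satb1. The members were chosen by name, as every ATAC-seq peak to which the deposited annotation gives the symbol of 1 of these genes. This rule uses no measured value, although the family itself was picked with earlier results of these data known. It gave 39 of the 61581 peaks, of which 22 belonged to Ikzf1, 6 to Ikzf2, 8 to Ikzf3, 1 to Ikzf4 and 2 to Ikzf5. The annotation gives a peak to the gene with the nearest start site, and such a label does not show which gene a peak controls.

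ATAC-seq uses a transposase that cuts and tags accessible DNA, so the number of reads in a peak measures how open that stretch of chromatin is. All 10 libraries came from T cells sorted out of spleen and lymph node as CD3+CD4+CD25-CD44low/-CD62L+, that is, as naive CD4 T cells, with 60000 cells per library and single reads of 75 bp. All mice carried the genotype Satb1fl/fl x CD4-CreERT2wt/+, with both Satb1 alleles floxed and a tamoxifen-dependent Cre recombinase whose name ties it to CD4. The 5 KO libraries (Sample_2268_KO to Sample_2272_KO) came from mice treated with tamoxifen, and the 5 WT libraries (Sample_2273_WT to Sample_2277_WT) from untreated mice of that genotype. No WT mouse received the drug, so effects of tamoxifen and of Satb1 loss cannot be told apart. The labels give no sex, age or batch, nor the floxed part of Satb1. Whether the libraries are separate animals is not stated, and p-values measure the spread among libraries only. Satb1 encodes a chromatin organiser of T cells, and the series asks how its loss changes accessibility, with Il2 as the named target.

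Ikaros family proteins bind DNA through zinc fingers near the amino terminus and pair with each other through zinc fingers at the carboxyl terminus. Ikaros (Ikzf1), Helios (Ikzf2), Aiolos (Ikzf3) and Eos (Ikzf4) are lymphoid factors that recruit the NuRD remodelling and deacetylase complex and other corepressors, and Pegasus (Ikzf5) is a more distant and more widely expressed relative. In CD4 T cells Ikaros and Aiolos are known as repressors of Il2, Helios marks most regulatory T cells, and Eos is a partner of Foxp3.

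The promoter sequences of Ikzf1 and Ikzf5 show the DNA under 3 of the promoter peaks described below. They are RefSeq windows of 250 bases before to 50 bases after a start, on assembly GRCm38.p6, of which mm10 is the browser name, and 2 of the 5 members matched the table, Ikzf1 with 2 windows at different starts and Ikzf5 with 1. Capitals mark GGGAA, a core of the motif bound by Ikaros proteins, and its reverse complement TTCCC. The first window of Ikzf1 lies at chr11:11685675-11685974 on the plus strand and overlaps 2 of the promoter peaks described below, at -163 bp and at the start itself.
Ikzf1 promoter: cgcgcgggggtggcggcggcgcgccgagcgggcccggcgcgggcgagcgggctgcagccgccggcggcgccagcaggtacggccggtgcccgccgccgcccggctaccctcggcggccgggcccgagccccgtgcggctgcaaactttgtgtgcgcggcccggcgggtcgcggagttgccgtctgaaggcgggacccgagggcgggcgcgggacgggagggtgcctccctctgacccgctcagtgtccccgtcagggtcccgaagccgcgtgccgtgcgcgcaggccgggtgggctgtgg
The window of Ikzf5 lies at chr7:131410429-131410728, is printed as the minus strand and falls inside the start-site peak of that gene.
Ikzf5 promoter: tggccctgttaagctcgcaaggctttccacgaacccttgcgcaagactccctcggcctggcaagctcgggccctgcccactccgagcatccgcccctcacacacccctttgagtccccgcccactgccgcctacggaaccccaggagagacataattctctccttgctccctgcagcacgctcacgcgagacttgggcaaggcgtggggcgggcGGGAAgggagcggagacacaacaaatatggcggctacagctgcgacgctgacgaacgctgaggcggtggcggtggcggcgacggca
The second Ikzf1 window, chr11:11689927-11690226 on the plus strand, is not printed, since it lies over the 5' UTR peak at +4.0 kb. It has a GC content of 49% and 2 matches, both TTCCC. The first Ikzf1 window has a GC content of 81.3% and no match on either strand, and the Ikzf5 window has a GC content of 65.7% and 1 match. Across all 32851 mouse promoter windows of this length the median GC content was 52.7%, and 62.7% held at least 1 match, so a match in a window of this size is common. These letters describe the windows, and no binding was measured.

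Total counts in peaks ran from 673398 to 2184717 per library (KO 673398 to 2184717, WT 1025283 to 2081740), and the median peak held 5 to 17 counts, so small changes of weak peaks lie within counting error. Levels are given as CPM (counts-per-million of all reads in peaks) after TMM scaling, which corrects for differences in composition between libraries. Satb1 itself averaged 434 ± 13.0 CPM in KO (range 418 to 454) and 378 ± 20.2 CPM in WT (range 353 to 403; SD, n = 5 each) over its 26 peaks, a measure that cannot check the labels, since deleting part of a gene need not close the rest. It was called higher in KO (1.14-fold, edgeR adjusted p = 0.0241). Of its 16 tested peaks 4 were called higher and 0 lower, beside 2.94% and 0.911% over all tested peaks. That gene call ended with DESeq2 (0.0903), with promoter peaks alone (0.353), with the libraries within sampling noise summed (0.127), without the 3 libraries of lowest total (0.114), and on leaving out Sample_2271_KO (0.0991), Sample_2276_WT (0.0805), Sample_2273_WT (0.0725) or Sample_2268_KO (0.0580). Some libraries of 1 group differed by no more than sampling noise in a chi-square test of their counts, while the other pairs of their groups differed. These were Sample_2268_KO with Sample_2270_KO, and Sample_2273_WT, Sample_2276_WT and Sample_2277_WT with each other (chi-square per degree of freedom 0.963 to 1.01, p = 0.153 to 1.000). Their files are not identical and their totals differ. The values below count them as separate libraries, and each call is also given with their counts summed, which leaves 4 KO and 3 WT libraries. In cell mixtures such as these, more cells with an open site and more opening per cell cannot be told apart.

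Accessibility of the family was raised at 3 peaks in KO and lowered at none, among many peaks that did not change detectably. A peak is called here at a Benjamini-Hochberg adjusted p under 0.05 in edgeR's quasi-likelihood test over all 34910 peaks with enough counts. Of the 39 family peaks, 27 were tested and 3 passed, 2 of Ikzf1 and 1 of Ikzf2, all higher in KO. That is 11.1% of the tested family peaks, beside 3.85% called over all tested peaks, 2.94% higher and 0.911% lower. A count of 3 is small, and introns and distal regions, where most family peaks lie, were called more often in the whole table (5.04% of intron peaks and 4.38% of distal peaks were higher, against 1.26% of promoter peaks). No family peak was called lower by edgeR, DESeq2 or limma-voom, and at an unadjusted edgeR p under 0.05 there were 5 higher and 0 lower, beside 7.85% higher and 5.73% lower over all tested peaks. KO and WT libraries did not overlap at 2 of the 27 tested peaks, beside 3.97% of all tested peaks. The median log2 fold change of KO over WT was 0.03 in the 27 tested family peaks and -0.01 in all tested peaks, and 15 family peaks lay above 1-fold and 12 below. The 24 tested peaks that were not called had log2 fold changes of -0.46 to 0.51, with adjusted p-values from 0.0626 upwards. The 12 untested peaks held 28 to 94 counts over all 10 libraries and averaged 2.05 to 5.83 CPM, below the filter on counts per library. Tested without that filter, none of the 12 passed (edgeR adjusted p = 0.402 to 0.965).

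**Figure D1:**
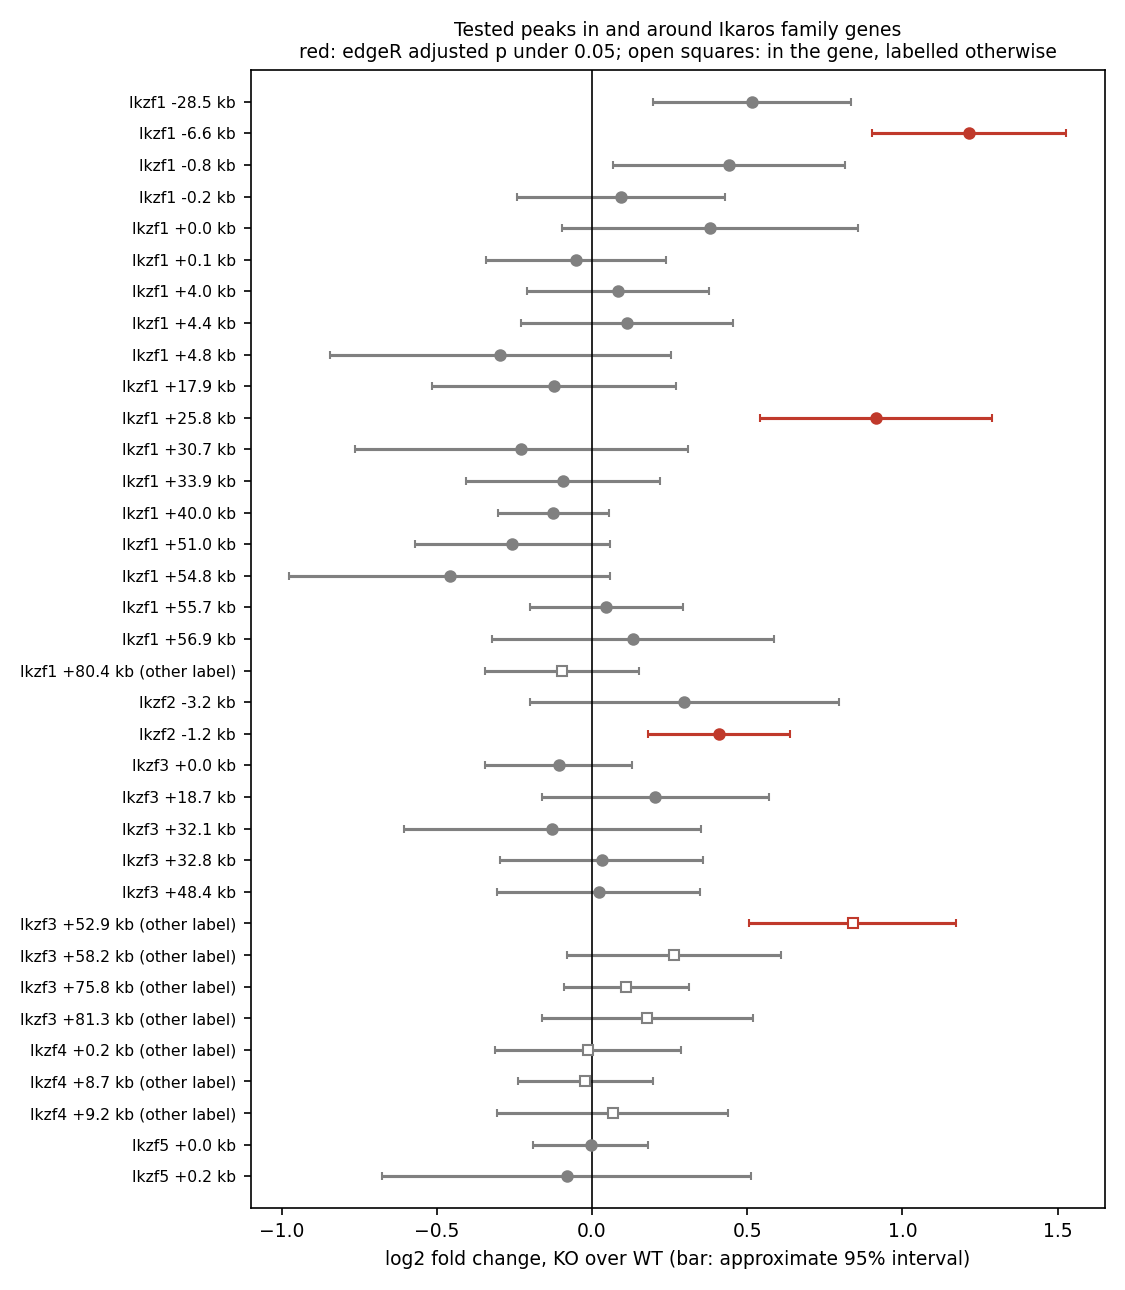
Log2 fold change of KO over WT (x axis) for each tested peak in or near an Ikaros family gene, named by gene and distance from its start in kb; bars are approximate 95% intervals, red marks an edgeR adjusted p under 0.05, and open squares are peaks inside the gene that the annotation gives to another gene or to none. Called values run from 0.41 (Ikzf2 at -1.2 kb) to 1.21 (Ikzf1 at -6.6 kb), and no bar lies wholly below 0.

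Ikzf1, the gene of Ikaros, showed the strongest single change of the family, at a site 6.6 kb before its start. It is a plus-strand gene at chr11:11685925-11772926 (mm10), and its 22 peaks spread over 4 upstream sites, 4 promoter peaks and 14 sites further into the gene. Peaks inside the gene that the annotation labels Fignl1 are not among them. Of those, only chr11:11766155-11766424 was tested, at 29.0 ± 4.59 CPM in KO libraries, against 30.7 ± 1.83 CPM in WT libraries (SD, n = 5 each, fold 0.935, edgeR adjusted p = 0.837). The changed upstream peak at chr11:11678935-11679292, at -6633 bp, lies in intron 1 of 3 of another transcript that the annotation places before the gene. It had 42.8, 23.6, 25.7, 35.3 and 28.1 CPM in the KO libraries, against 10.8, 16.0, 12.8, 11.0 and 16.5 CPM in the WT libraries. The lowest KO library was above the highest WT library. The means were 31.1 ± 7.89 CPM in KO libraries, against 13.4 ± 2.71 CPM in WT libraries (SD, n = 5 each), a 2.32-fold level in KO with an approximate 95% interval of 1.87 to 2.88 (log2 fold change 1.21 ± 0.16 SE, edgeR adjusted p = 1.38e-08). Among all tested peaks 258 showed a rise at least as large. With the libraries within sampling noise summed the log2 fold change was 1.20 (adjusted p = 3.78e-08).

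Inside the gene, a peak in intron 3 of 5 also rose. It lies at chr11:11711768-11712027, 25.8 kb past the start. Its level was 21.0, 22.6, 21.2, 17.9 and 15.4 CPM in the KO libraries and 9.85, 11.0, 9.95, 9.72 and 8.57 CPM in the WT libraries. Here as well every KO library was above every WT library. The means were 19.6 ± 2.93 CPM in KO libraries, against 9.82 ± 0.873 CPM in WT libraries (SD, n = 5 each), 1.89-fold with an approximate interval of 1.46 to 2.44 (log2 0.91 ± 0.19 SE, edgeR adjusted p = 0.000494, and 0.00102 with the libraries within sampling noise summed). Both Ikzf1 calls held in each of the 17 alternative settings for single peaks, the weakest being DESeq2 for the intron peak (adjusted p = 0.0130).

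The strongest peak of Ikzf1 did not change detectably. It lies 40.0 kb past the start in the same intron, at chr11:11725908-11726603, and held 104, 84.8, 95.3, 96.1 and 86.0 CPM in the KO libraries, against 93.5, 114, 106, 98.5 and 90.0 CPM in the WT libraries. The groups overlapped, with means of 93.3 ± 8.08 CPM in KO libraries, against 100.5 ± 9.82 CPM in WT libraries (SD, n = 5 each) and a fold of 0.917 with an interval of 0.810 to 1.04 (edgeR adjusted p = 0.615). This peak held 23.7 ± 1.48% of all Ikzf1 counts in KO and 26.9 ± 1.70% in WT. The -6.6 kb peak held 7.82 ± 1.57% in KO and 3.60 ± 0.748% in WT, and the +25.8 kb peak 5.00 ± 0.854% in KO and 2.63 ± 0.164% in WT (SD, n = 5 each). The shares of these called peaks are given as a description, since their change follows from the calls.

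**Figure D2:**
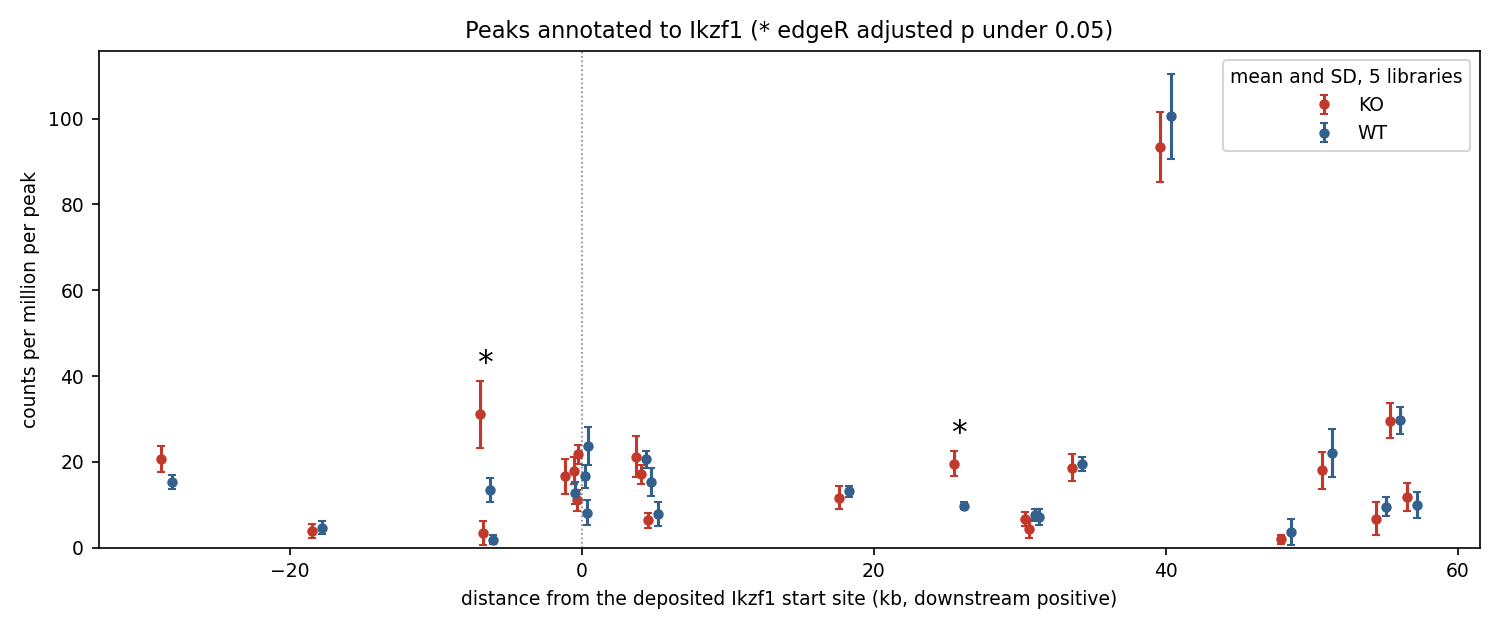
Mean level of each of the 22 Ikzf1 peaks in CPM (y axis) by distance from the start in kb (x axis), with KO and WT drawn side by side, bars of 1 SD over 5 libraries each, and asterisks at an edgeR adjusted p under 0.05. The asterisks stand at -6.6 kb, where KO averaged 31.1 and WT 13.4 CPM, and at +25.8 kb, with 19.6 in KO and 9.82 in WT, while the tallest site at +40.0 kb overlapped.

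By position, and with the 2 called peaks included, the median log2 fold change of Ikzf1 peaks was 0.86 for the 2 tested upstream peaks, 0.24 for the 4 promoter peaks and -0.11 for the 12 tested peaks past the promoter, of which 7 lay below 1-fold and 5 above. The second upstream peak, at -28.5 kb (chr11:11657148-11657461), averaged 20.7 ± 3.02 CPM in KO libraries, against 15.3 ± 1.66 CPM in WT libraries, 1.43-fold with an interval of 1.14 to 1.78 (SD, n = 5 each, edgeR adjusted p = 0.0626). It passed only without Sample_2269_KO (0.0409) and without the 3 libraries of lowest total (0.0304). The promoter peak that covers the deposited start, chr11:11685844-11685976, lies under the end of the GC-rich window printed above. It had 7.25, 12.3, 13.6, 10.1 and 12.2 CPM in the KO libraries and 8.86, 10.0, 9.48, 9.72 and 3.06 CPM in the WT libraries. The groups overlapped, at 11.1 ± 2.48 CPM in KO libraries, against 8.23 ± 2.92 CPM in WT libraries (fold 1.30, interval 0.935 to 1.81, edgeR adjusted p = 0.533). The promoter peak at -823 bp covers the RefSeq start at 11684962. It averaged 16.6 ± 4.08 CPM in KO libraries, against 12.7 ± 2.63 CPM in WT libraries (SD, n = 5 each). Its fold was 1.36 with an interval of 1.05 to 1.76 (edgeR unadjusted p = 0.0226, adjusted p = 0.246). The promoter peaks at -163 and +91 bp and the 5' UTR peaks at +4.0 and +4.4 kb had edgeR adjusted p-values of 0.866 to 0.938. Summed over all 22 peaks, Ikzf1 had 441 ± 25.9 CPM in KO libraries, against 418 ± 21.2 CPM in WT libraries (SD, n = 5 each), 1.06-fold with an interval of 0.986 to 1.14 (adjusted p = 0.557 over 12489 genes). Without its 2 called peaks the sum had a log2 fold change of -0.02 (adjusted p = 0.925). Its drop follows from removing peaks picked for their rise.

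Ikzf2, the gene of Helios, was the member whose summed accessibility rose. It is a minus-strand gene at chr1:69531207-69685960. Its strongest peak, chr1:69687146-69687696, is placed at -1186 bp from that start and covers the RefSeq gene end at 69687351. This promoter peak had 47.9, 47.1, 57.5, 38.2 and 47.5 CPM in the KO libraries, against 31.5, 27.1, 34.1, 46.0 and 34.9 CPM in the WT libraries. Sample_2276_WT, with 46.0 CPM, reached into the KO range, and Sample_2271_KO, with 38.2 CPM, was the lowest of its group. The means were 47.6 ± 6.84 CPM in KO libraries, against 34.7 ± 7.01 CPM in WT libraries (SD, n = 5 each), 1.33-fold with an approximate interval of 1.13 to 1.56 (log2 0.41 ± 0.12 SE, edgeR adjusted p = 0.0229). The call held with the libraries within sampling noise summed (0.0396) and with limma-voom (0.0337). It ended with DESeq2 (0.254), without the 3 libraries of lowest total (0.189), and without any single one of Sample_2268_KO, Sample_2270_KO, Sample_2272_KO, Sample_2273_WT, Sample_2274_WT, Sample_2275_WT or Sample_2277_WT (0.05001 to 0.166).

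Over its 6 peaks, Ikzf2 had 82.3, 81.4, 84.1, 74.5 and 83.2 CPM in the KO libraries and 56.7, 58.5, 58.4, 75.1 and 66.3 CPM in the WT libraries. Only Sample_2271_KO and Sample_2276_WT crossed, by less than 1 CPM. The means were 81.1 ± 3.84 CPM in KO libraries, against 63.0 ± 7.70 CPM in WT libraries (SD, n = 5 each), 1.28-fold with an approximate interval of 1.13 to 1.44 (log2 0.35 ± 0.09 SE, edgeR adjusted p = 0.0152, and 0.0205 with the libraries within sampling noise summed). Ikzf2 was the 1 called gene among the 4 members with enough counts for the gene test, beside 2.19% called over all tested genes, 1.65% higher and 0.536% lower. This call, too, ended with DESeq2 (0.188), without Sample_2272_KO (0.0717), Sample_2274_WT (0.0560) or Sample_2275_WT (0.0725), without the 3 libraries of lowest total (0.0989), with promoter peaks alone (0.103), with peaks outside promoters alone (0.288), and without its called peak (0.495). The called peak was picked for its rise and held 65.5 ± 6.61% of Ikzf2 counts in KO and 61.3 ± 6.08% in WT (SD, n = 5 each). The setting without it is therefore no independent test. The log2 fold change stayed between 0.26 and 0.42 in all 21 alternatives for gene sums. The distal peak at -3.2 kb averaged 9.39 ± 3.21 CPM in KO libraries, against 7.79 ± 1.90 CPM in WT libraries (fold 1.23, interval 0.870 to 1.74, edgeR adjusted p = 0.690), and the other 4 Ikzf2 peaks fell below the count filter.

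**Figure D3:**
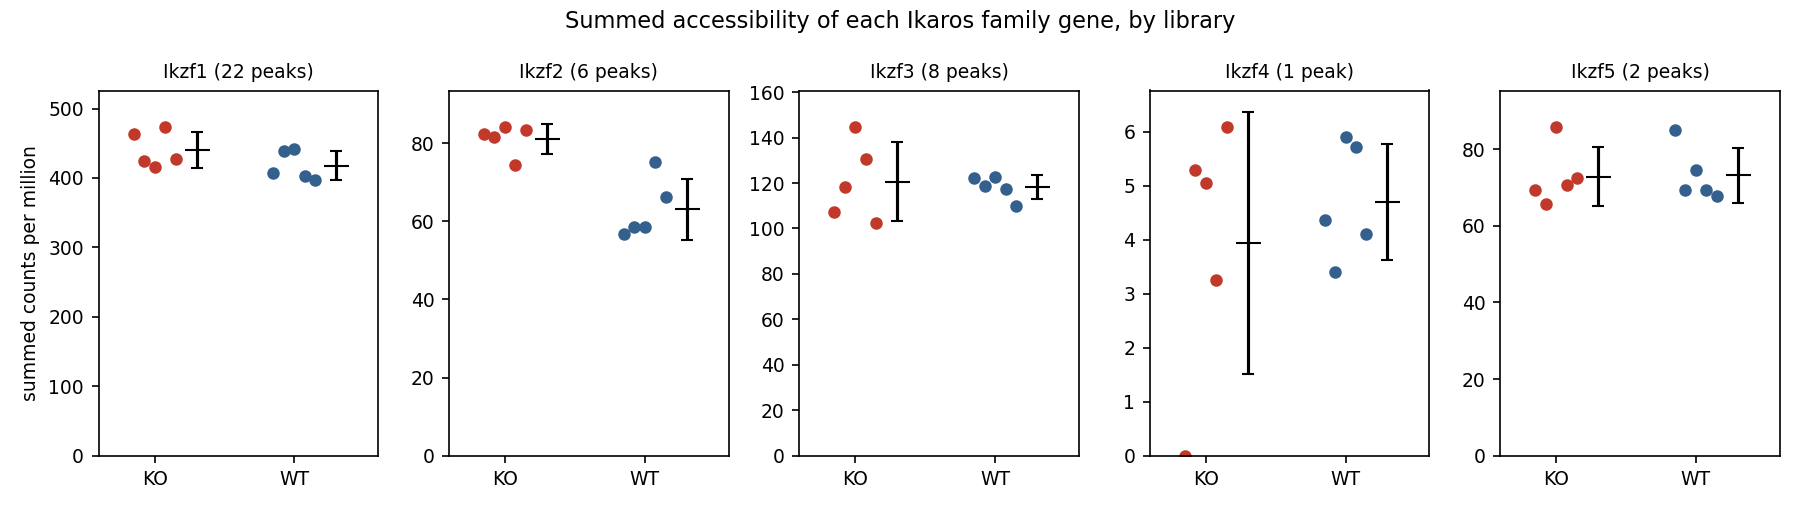
Summed level of all peaks annotated to each member in CPM (y axis, starting at 0 and scaled per gene), 1 point per library, KO left of WT, with the mean and SD of 5 libraries. The Ikzf2 points sit at 74.5 to 84.1 in KO and 56.7 to 75.1 in WT, and the groups overlap for all 5 genes.

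Ikzf3, the gene of Aiolos, did not differ detectably over the peaks that carry its name. It is a minus-strand gene at chr11:98464693-98546031. Its promoter peak, chr11:98545675-98546171, had 26.1, 35.8, 42.4, 30.4 and 29.9 CPM in the KO libraries and 32.5, 34.1, 36.0, 30.4 and 34.3 CPM in the WT libraries. KO spanned the whole WT range, at 32.9 ± 6.31 CPM in KO libraries, against 33.5 ± 2.10 CPM in WT libraries (fold 0.928, interval 0.787 to 1.09, edgeR adjusted p = 0.803). Its 8 peaks together had 121 ± 17.2 CPM in KO libraries, against 118 ± 5.11 CPM in WT libraries (SD, n = 5 each), a fold of 0.995 with an interval of 0.896 to 1.10 (adjusted p = 0.987). The tested peak with the smallest p, in intron 1 at chr11:98526856-98527322, averaged 18.5 ± 5.27 CPM in KO libraries, against 14.7 ± 2.94 CPM in WT libraries (edgeR adjusted p = 0.720).

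A peak inside Ikzf3 that the annotation gives to its neighbour Grb7 did rise, and it is named here after its values were seen. It lies in intron 3 of 7 of Ikzf3 at chr11:98493041-98493310, 46207 bp from the start of Grb7. It had 21.0, 18.8, 19.7, 24.1 and 24.4 CPM in the KO libraries, against 17.7, 12.5, 10.9, 11.7 and 12.2 CPM in the WT libraries. All KO libraries were above all WT libraries. The means were 21.6 ± 2.56 CPM in KO libraries, against 13.0 ± 2.71 CPM in WT libraries (SD, n = 5 each), 1.79-fold with an interval of 1.42 to 2.25 (log2 0.84 ± 0.17 SE, edgeR adjusted p = 0.000333, and 0.000616 with the libraries within sampling noise summed), and the call held in all 17 alternatives for single peaks. It was 1 of 6 peaks inside Ikzf3 labelled Grb7, of which 4 were tested, and the other 3 had adjusted p-values of 0.566 to 0.753. With all peaks inside the gene counted to Ikzf3, its log2 fold change was 0.14 ± 0.06 SE (adjusted p = 0.346).

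**Figure D4:**
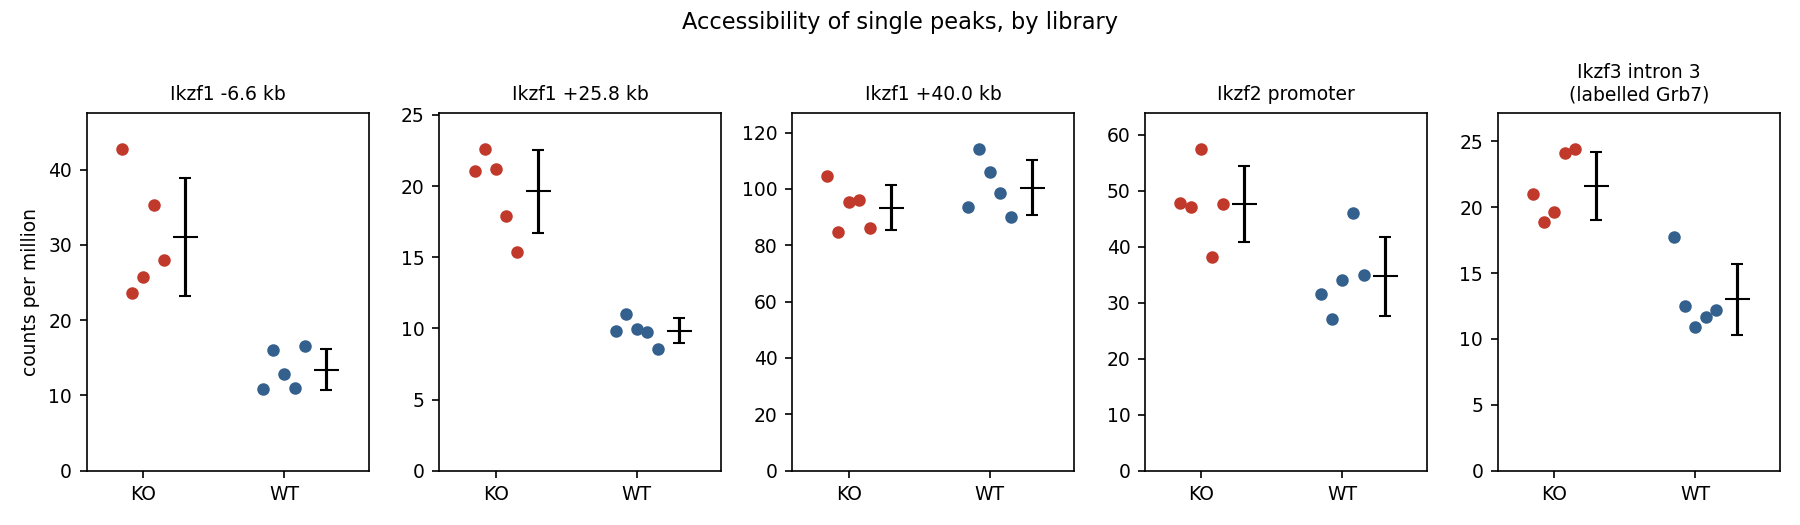
Level of 5 single peaks in CPM (y axis, starting at 0), 1 point per library, KO left of WT, with the mean and SD of 5 libraries. KO and WT do not overlap at Ikzf1 -6.6 kb, at Ikzf1 +25.8 kb and in Ikzf3 intron 3, and they overlap at the strongest Ikzf1 peak and at the Ikzf2 promoter.

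Ikzf4, the gene of Eos, had a single annotated peak that fell below the count filter, and the stronger peaks inside the gene gave no detectable change. It is a minus-strand gene, placed by the deposited annotation at chr10:128632415-128645993, while its RefSeq span reaches to 128669671. The peak lies 200 bp before the deposited start, at chr10:128646193-128646272. It held 0, 5, 3, 6 and 12 reads in the KO libraries and 4, 6, 11, 8 and 6 reads in the WT libraries. The 0 reads of Sample_2268_KO allow a level of up to 2.18 CPM (3 counts, counting error only), and the other levels ran from 2.90 to 5.43 CPM in KO and from 3.01 to 5.21 CPM in WT. A peak labelled Suox, chr10:128668934-128669044, lies in the RefSeq span only and also fell below the count filter. A further 3 peaks inside the deposited span carry no symbol. Of these, the peak at the deposited start, chr10:128645674-128646011, averaged 20.7 ± 2.77 CPM in KO libraries, against 20.8 ± 2.05 CPM in WT libraries (edgeR adjusted p = 0.986). The intron 4 peak averaged 39.1 ± 6.14 CPM in KO libraries, against 41.2 ± 6.05 CPM in WT libraries (0.969), and the exon 5 peak 14.1 ± 2.81 CPM in KO libraries, against 14.2 ± 2.44 CPM in WT libraries (SD, n = 5 each, edgeR adjusted p = 0.935).

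Ikzf5, the gene of Pegasus, showed no detectable change. It is a minus-strand gene at chr7:131388649-131410478, and both of its peaks are at the start. The larger, chr7:131410281-131410871, holds the Ikzf5 window printed above and had 58.7, 52.8, 68.1, 56.0 and 59.8 CPM in the KO libraries, against 67.9, 58.1, 59.3, 55.7 and 54.5 CPM in the WT libraries. The groups covered the same range, with means of 59.1 ± 5.71 CPM in KO libraries, against 59.1 ± 5.29 CPM in WT libraries (SD, n = 5 each). The fold was 0.997 with an approximate interval of 0.876 to 1.13 (edgeR adjusted p = 0.992). The sum of both peaks was 72.8 ± 7.70 CPM in KO libraries, against 73.2 ± 7.14 CPM in WT libraries (fold 0.991, interval 0.880 to 1.12, edgeR adjusted p = 0.982).

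Per kb of peak, the members' levels in KO stood in the order Ikzf5, Ikzf1, Ikzf2, Ikzf3 and Ikzf4. Ikzf5 had 101 ± 10.7 CPM per kb in KO and 102 ± 9.92 CPM per kb in WT, and Ikzf1 90.3 ± 5.30 in KO and 85.5 ± 4.35 in WT. Ikzf2 had 68.0 ± 3.22 CPM per kb in KO and 52.9 ± 6.46 in WT, and Ikzf3 59.0 ± 8.41 in KO and 57.8 ± 2.50 in WT. Ikzf4, with its 1 weak peak, had 49.2 ± 30.4 CPM per kb in KO and 58.7 ± 13.4 in WT (SD, n = 5 each throughout). In KO, neighbours in this order lay within their spread except for Ikzf1 and Ikzf2, and in WT Ikzf2, Ikzf3 and Ikzf4 lay within theirs. Across the 10 pairs of members, the log2 ratio of summed counts was compared between KO and WT with a two-sided exact permutation test, with a smallest possible p of 0.00794. No pair passed after Benjamini-Hochberg adjustment, but over 10 pairs 1 pair alone could not have passed even at that smallest p. The smallest p-values were those of Ikzf5 over Ikzf2 (difference of log2 ratios -0.38, exact p = 0.0317), Ikzf3 over Ikzf2 (-0.35, exact p = 0.0476) and Ikzf2 over Ikzf1 (0.29, exact p = 0.0556), each with an adjusted p of 0.185. This test did not decide whether the rise of Ikzf2 differs from the change of the other members. The share of a member's counts in its promoter peaks did not differ detectably either, at 17.2 ± 2.73% in KO and 16.5 ± 2.38% in WT for Ikzf1, 70.0 ± 4.93% in KO and 68.3 ± 4.40% in WT for Ikzf2, and 30.5 ± 3.56% in KO and 31.7 ± 2.58% in WT for Ikzf3 (SD, n = 5 each, exact permutation adjusted p = 0.659 for each).

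Genes whose proteins work with the Ikaros family did not pass the test over all their peaks. Of 18 genes of the NuRD complex and other corepressors, 17 were tested by gene sum and none passed, by edgeR, DESeq2 or limma-voom, while 1 was higher (Mta3) and 1 lower (Smarca4) at an unadjusted edgeR p under 0.05, beside 6.73% higher and 5.73% lower over all tested genes. Their log2 fold changes ran from -0.20 to 0.22 with a median of -0.01, beside -0.0048 over all tested genes. Mta3, a NuRD subunit, averaged 117 ± 15.4 CPM in KO libraries, against 103 ± 6.32 CPM in WT libraries (SD, n = 5 each, 1.17-fold, edgeR adjusted p = 0.129), and it passed with peaks outside promoters alone (0.0193). Chd4, the main NuRD remodeller, averaged 47.9 ± 3.84 CPM in KO libraries, against 54.3 ± 2.99 CPM in WT libraries (0.869-fold, edgeR unadjusted p = 0.0615, adjusted p = 0.434). Every KO library was below every WT library for Chd4, and the share of all genes with such a split is not given here. Smarca4, a BAF remodeller, averaged 100.2 ± 7.55 CPM in KO libraries, against 115 ± 7.31 CPM in WT libraries (SD, n = 5 each, 0.868-fold, edgeR adjusted p = 0.170), and its groups overlapped. Of the ubiquitin ligase through which lenalidomide-type drugs degrade human Ikaros and Aiolos, 3 genes were tested and none passed by these tools (0 at an unadjusted p under 0.05), with Crbn, its drug receptor, at 126 ± 10.3 CPM in KO libraries, against 118 ± 5.95 CPM in WT libraries (SD, n = 5 each, edgeR adjusted p = 0.549).

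Genes described as regulated by the family included some of those with raised accessibility. Of 30 such genes 27 were tested, 4 rose and 0 fell, beside 1.65% higher and 0.536% lower over all tested genes. At an unadjusted edgeR p under 0.05 there were 7 higher and 2 lower, beside 6.73% and 5.73% over all tested genes. DESeq2 and limma-voom each called 4. The median log2 fold change of the list was 0.10. The list was drawn up with earlier results of these data known, Il2 is the gene named in the title of the series, and its count is not independent evidence. Il2, the T cell growth factor gene, had 148, 114, 133, 152 and 129 CPM in the KO libraries and 76.4, 83.5, 82.6, 77.2 and 69.7 CPM in the WT libraries, which did not overlap (1.74-fold, edgeR adjusted p = 8.67e-11). Il4, the Th2 cytokine gene, averaged 13.9 ± 3.98 CPM in KO libraries, against 5.23 ± 1.94 CPM in WT libraries (2.78-fold, edgeR adjusted p = 0.00024). Those Il4 levels rest on few reads per library. The counts were 23, 14, 5, 30 and 23 in KO and 6, 13, 7, 8 and 4 in WT. Ctla4, an inhibitory receptor gene, averaged 212 ± 11.6 CPM in KO libraries, against 153 ± 7.84 CPM in WT libraries (1.39-fold, edgeR adjusted p = 5.76e-07). Il7r, the receptor gene for the survival cytokine IL-7, averaged 397 ± 24.9 CPM in KO libraries, against 302 ± 6.48 CPM in WT libraries (SD, n = 5 each, 1.31-fold, edgeR adjusted p = 9.89e-07). With the libraries within sampling noise summed the same 4 passed (adjusted p = 9.84e-10 for Il2, 0.000379 for Il4, 7.67e-06 for Ctla4 and 2.94e-05 for Il7r). In promoter peaks alone, where Il4 gave no value, Il2 passed (log2 fold change 2.52), while Ctla4 and Il7r had log2 fold changes of -0.06 and 0.17 there (edgeR adjusted p = 0.938 and 0.530). With peaks outside promoters alone, the Il2 call ended (log2 fold change 0.28, edgeR adjusted p = 0.0683), while Il4 (1.46, adjusted p = 6.81e-05), Ctla4 (0.66, adjusted p = 3.27e-11) and Il7r (0.45, adjusted p = 6.69e-09) passed.

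Helios and Eos are also known from regulatory T cells, so markers of other cells were set beside the Ikzf2 rise. Summed over the 9 regulatory T cell markers analysed, the level was 895 ± 68.9 CPM in KO (range 811 to 983) and 817 ± 37.0 CPM in WT (range 756 to 850; SD, n = 5 each, exact permutation p = 0.0714, adjusted 0.185 over 7 lists). Of these 9 genes 1 rose, Ctla4, and none fell by edgeR (at an unadjusted p under 0.05 the counts were also 1 and 0). Over all tested genes 1.65% rose and 0.536% fell (6.73% and 5.73% at an unadjusted edgeR p under 0.05). Foxp3, which defines regulatory T cells, averaged 8.97 ± 3.64 CPM in KO libraries, against 7.31 ± 1.68 CPM in WT libraries (1.39-fold, edgeR adjusted p = 0.498). Il2ra encodes the CD25 that the sort selected against. It averaged 168 ± 20.6 CPM in KO libraries, against 165 ± 12.8 CPM in WT libraries (1.04-fold, edgeR adjusted p = 0.842). By fold, 7 of the 9 markers lay above 1 and 2 below, with a median log2 fold change of 0.08. The part of regulatory T cells in the Ikzf2 result was not tested. The sum of the naive CD4 T cell markers was 3605 ± 106 CPM in KO libraries, against 3418 ± 139 CPM in WT libraries (exact permutation p = 0.0794, adjusted 0.185), and that of the NK and innate lymphoid markers 293 ± 12.8 CPM in KO libraries, against 280 ± 2.43 CPM in WT libraries (exact permutation p = 0.0238, adjusted 0.167). Of the 10 naive markers tested by edgeR, 2 rose and 0 fell, beside 1.65% and 0.536% over all tested genes. At an unadjusted edgeR p under 0.05 there were 4 and 1, beside 6.73% and 5.73%. Sums for B cells (45.2 CPM in KO and 48.3 in WT), CD8 T cells (96.9 in KO and 92.8 in WT), activated or memory T cells (375 in KO and 388 in WT) and myeloid cells (250 in KO and 236 in WT) did not pass either (adjusted p = 0.389 to 0.468). The smallest possible exact p was 0.00794, at which 1 list alone could not pass over 7 lists. These sums therefore do not show that the mix of cells was equal. The B cell sum covers 4 of the 8 genes in that list, and the others were not analysed here.

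Around the family genes, 4 peaks under other names changed. Within the genes and 100 kb on either side lay 71 peaks under other names, of which 47 were tested, 3 rose and 1 fell. These 4 are 8.51% of the tested neighbours, beside 3.85% called over all tested peaks, 2.94% higher and 0.911% lower. Within 500 kb the share was 4.69%. Besides the Grb7-labelled peak above, the calls within 100 kb were a distal peak labelled Spag16 near Ikzf2 at chr1:69759607-69759867 (11.7 ± 3.11 CPM in KO libraries, against 6.77 ± 1.52 CPM in WT libraries, 1.76-fold, edgeR adjusted p = 0.0333) and the promoter of Pstk near Ikzf5 at chr7:131370670-131371545 (62.3 ± 5.23 CPM in KO libraries, against 45.8 ± 3.45 CPM in WT libraries, 1.34-fold, edgeR adjusted p = 0.00235). An exonic peak of Pmel near Ikzf4 at chr10:128716073-128716626 fell (41.8 ± 4.58 CPM in KO libraries, against 55.0 ± 5.63 CPM in WT libraries, SD, n = 5 each, 0.752-fold, edgeR adjusted p = 0.00646). With DESeq2 the calls of Spag16 (adjusted p = 0.270), Pstk (0.0695) and Pmel (0.145) ended. The Spag16 call also ended without Sample_2268_KO, Sample_2272_KO, Sample_2275_WT, Sample_2276_WT or Sample_2277_WT (0.0639 to 0.171), and the Pmel call without Sample_2268_KO (0.0512). All 4 calls held with the libraries within sampling noise summed.

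Across all 10 libraries, the genes whose summed accessibility moved most like each member were named by the Pearson correlation of log2(CPM + 1). This is a description over libraries that differ in depth and in group. For Ikzf1 these genes were Slc19a3 (r = 0.93), Tctn3 (0.92) and Hopx (0.91), and for Ikzf2 they were Id3 (0.95), Ddx1 (0.94) and Nabp1 (0.93). For Ikzf3 they were Arf4 (0.91), Sumf2 (0.89) and Tpm4 (0.89), and for Ikzf5 Ppp1r8 (0.94), Irf9 (0.93) and Ccnl1 (0.92). These are the highest of 12489 genes and so are high by choice.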

How the data were processed

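ATAC-seq of 10 libraries, 5 KO and 5 WT, was analysed from 2 tables. The authors deposited a table of raw, whole-number counts of reads in 61581 shared peaks, and a second deposited table with each peak's position, class, nearest gene and other measures such as the distance to its start. Per the submitters' processing notes the tools were R 3.5.3, DESeq2 1.22.2, ChIPseeker 1.18.0, MACS2 2.1.2, deepTools 3.3.0 and 3.5.2, SAMtools 1.9, Picard, Bowtie2 2.3.5, Trimmomatic 0.36 and bcl2fastq 2.20, with the build mm10. The shift of reads to the transposase cut site, the treatment of duplicates and whether peaks were called on pooled libraries are steps not given in the sources used here. Shifting moves peak borders by a few bases, and removing duplicates caps dense peaks in deep libraries.

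Counts per peak, and counts summed over all peaks of a symbol (14287 symbols; 7981 peaks carry none), were tested with edgeR 4.0.16 in R 4.3.3 (TMM, filterByExpr by group, glmQLFit and glmQLFTest, no covariate, Benjamini-Hochberg over 34910 peaks or 12489 genes, threshold 0.05). DESeq2 1.42.0 and limma-voom (limma 3.58.1) were alternatives. CPM of peaks and of genes use slightly different totals, since gene totals count symbol-labelled peaks only. The SE is approximate, taken from the F statistic, and 95% intervals are 1.96 SE either way. Ratios between members used a prior count of 0.5. Sums and shares were compared with exact permutation tests over 252 assignments of 5 libraries. The 10 mitochondrial peaks (1.08% of counts) stayed in the totals. The scripts were tested on simulated counts.

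The members and the gene lists were chosen with earlier results of these data known. Named peaks are those called, the promoter peak nearest each start, and each member's strongest and smallest-p tested peaks. List genes named are those called, up to 4 a direction, and Il2. Chd4, Smarca4, Mta3, Crbn, Foxp3, Il2ra, the second upstream Ikzf1 peak, the peaks inside members under other labels and the neighbouring peaks fall outside this rule and were chosen after their values were seen. The same holds for the Ikzf1 promoter peaks at -823, -163 and +91 bp, the Ikzf1 5' UTR peaks and the Ikzf2 peak at -3.2 kb. A marker of naive cells is not reported by name. No sequence of the called peaks was used here.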

Additional observations from a re-analysis of the deposited data

Results flagged for a closer look

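For 30 groups of 5 libraries, the gap between the most extreme library and its neighbour was compared with the range of the group (Dixon's test), which flags about 5% of groups by chance. It marked 2. Sample_2271_KO had the lowest Ikzf2 sum of its group, at 74.5 CPM, with the other 4 KO libraries at 81.4 to 84.1 CPM. Without it, the Ikzf2 gene call held (log2 fold change 0.39, edgeR adjusted p = 0.0151). Sample_2277_WT had the lowest level at the Ikzf1 start-site peak chr11:11685844-11685976, at 3.06 CPM, with the other 4 WT libraries at 8.86 to 10.0 CPM. The peak was not called in any of the 17 alternatives for single peaks (edgeR, DESeq2 or limma-voom adjusted p = 0.399 to 0.969).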

How the results depend on the processing

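No paired analysis was possible because the labels number the libraries consecutively and share no replicate number between KO and WT. The 2 called Ikzf1 peaks and the Grb7-labelled peak in Ikzf3 kept direction and call in all 17 alternatives for single peaks. The called family peaks numbered 2 to 4 higher, and none was lower; the range over libraries left out in turn was also 2 to 4. The called member genes numbered 1 higher with all libraries, and 0 with DESeq2, without the 3 libraries of lowest total, with promoter peaks only, with peaks outside promoters only and without the called member peaks (Ikzf2 log2 fold change 0.26, adjusted p = 0.495), and 0 to 1 over libraries left out in turn. Leaving out the called member peaks and the counting of all peaks inside a gene to that gene were added after the data were seen. The former removes peaks picked for their rise, so a call lost there follows in part from that choice. DESeq2 called 529 peaks higher and 58 lower (edgeR 1026 and 318), and 92 genes higher and 17 lower (edgeR 206 and 67). Leaving out a library gave 135 to 204 genes higher, the lowest without Sample_2271_KO, and 51 to 66 lower. Promoter peaks only gave 65 genes higher and 5 lower, peaks outside promoters only gave 143 lower, and 7 libraries, without the 3 of lowest total, gave 29 lower. In promoter peaks only, 1 of the regulated genes rose in place of 4. Within 500 kb of the members 9 peaks under other names were called, beside 4 within 100 kb, as the window holds 192 tested peaks in place of 47. The uncalled sums of Ikzf1, Ikzf3 and Ikzf5 changed sign in 1, 6 and 4 alternatives. The cause of these shifts was not tested where the setting does not itself remove peaks or libraries. The 12 untested family peaks fell below the count filter.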
